A study of Danio rerio with 18 samples.

Results

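All-trans retinoic acid (atRA) changed transcript levels of zebrafish embryos differently in the gastrula and in the embryo with 12 somites, and the transcripts behind that change of effect are described here. For each transcript the atRA effect is the log2 fold change of atRA over control, and the quantity tested is the effect at 12 somites minus the effect at 80% epiboly. The members are 12 of the 18 libraries of the series, 3 each of 80% epiboly control, 80% epiboly atRA, 12 somites control and 12 somites atRA. All were RNA-seq libraries of total RNA from whole wild-type Danio rerio embryos raised at 28°C. Treated embryos received 0.1 µM atRA and controls received DMSO, the solvent. Embryos collected at 80% epiboly, late in gastrulation, were exposed from 30% epiboly, and those collected at 12 somites were exposed from 80% epiboly. Stage, onset and length of exposure therefore cannot be told apart. Neither the number of embryos pooled per library nor the clutches are given in the labels, so p-values measure the spread between libraries of a group, which may be technical.

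Retinoic acid is made from vitamin A by retinaldehyde dehydrogenases and removed by Cyp26 enzymes, and it binds nuclear receptors that sit on DNA as heterodimers of RAR and RXR. In vertebrate embryos it is known for patterning the hindbrain and spinal cord along the head-to-tail axis through Hox genes, and for roles in somites, heart and pancreas. Excess retinoic acid is a classic teratogen that shifts tissue toward posterior identity. The files identify features by Ensembl transcript ID only, and 0 of the 58549 IDs were found in the gene tables used here. No gene names, roles or sequences are therefore given, embryo stage could not be checked against marker genes, and results are ordered by the direction of the atRA effect at each stage.

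At 80% epiboly each library held between 80522765 and 115511468 transcript counts, and treated and control ranges overlapped. The deepest treated library at 12 somites held 86123564 and the shallowest control 87637013, so depth separated the groups there. Labels give no preparation or sequencing batch, and a batch that followed treatment cannot be told apart from it. After thinning every library to the size of the smallest, an alternative added after seeing the data, 11364 differences were called, against 11949 without thinning. In whole-embryo RNA, fewer cells of a type and less RNA per cell cannot be told apart.

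The first question was how many transcripts responded differently at the later stage. The effect differed for 11949 of 42956 transcripts tested (27.8% called) by the interaction term of edgeR's quasi-likelihood fit, at an adjusted p under 0.05. For 5263 transcripts (12.3%) the effect was more positive at 12 somites, and for 6686 (15.6%) it was more negative. More negative differences were also larger, with a median log2 difference of -0.81 against 0.48 for the more positive ones. An absolute log2 difference of at least 1 was called for 3815 transcripts (8.88%), 2701 of them more negative and 1114 more positive. A mean of at least 10 counts in each group was held by 1702 of the 2701 and 777 of the 1114. At 5 or more on the log2 scale there were 90 more negative and 13 more positive differences. The median difference over all tested transcripts was -0.031 with TMM scaling of the libraries, -0.11 when scaled by library totals and 0.0084 when DESeq2 size factors were used. The share of more positive calls moved with it, from 44% to 30.2% (totals) and 51.7% (size factors), so the side that held more calls depended on the scaling. It also rose to between 48.9 and 50.1% when any 1 of the 80% epiboly control libraries, or atRA replicate 1 of that stage, was left out.

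**Figure D1:**
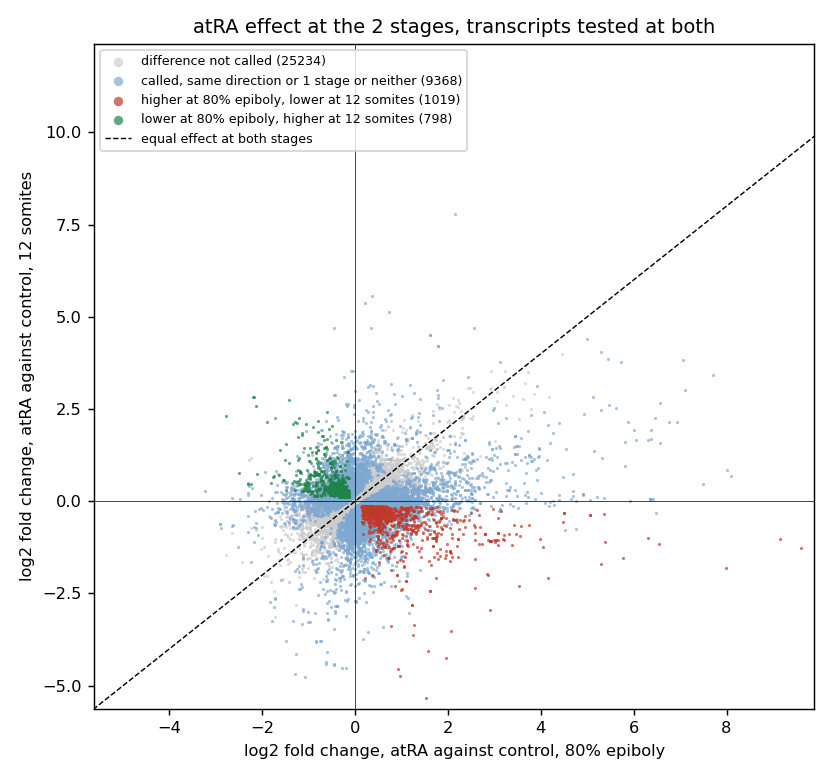
Log2 fold change of atRA over control at 80% epiboly (horizontal axis) and at 12 somites (vertical axis), 1 point per transcript tested at both stages, with the dashed line marking an equal effect. Red points (1019) were higher and then lower with atRA, green points (798) lower and then higher, and the long horizontal tail to the right holds large gastrula rises that were smaller or absent at 12 somites.

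Called differences were sorted by what atRA did at each stage alone, in separate fits of the 6 libraries of a stage. These fits share their libraries with the interaction, so the classes describe the differences and lend them no separate support. In the separate fits 27.8% of transcripts were called at 80% epiboly (14.1% higher, 13.7% lower) and 36.1% at 12 somites (17.7% higher, 18.5% lower). Not being called at a stage does not show that atRA had no effect there. The common coefficient of variation between libraries was 0.077 at 80% epiboly and 0.049 at 12 somites. A smaller spread lets smaller effects be called, and its part in the class sizes was not tested.

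The effect turned over in 1817 transcripts, with a call on opposite sides at the earlier and the later stage. Of these, 1019 were higher with atRA at 80% epiboly and lower at 12 somites, with a median log2 fold change of 0.62 at the earlier stage and -0.39 at the later. The other 798 were lower at first and higher later, with medians of -0.35 and 0.31. In 1680 of the 1817 the atRA libraries lay entirely to 1 side of the controls at 80% epiboly and entirely to the other at 12 somites. Such opposite separation occurred in 8% of all tested transcripts, 4.61% higher first and 3.39% lower first. Opposite calls in the same libraries favour such separation, so the larger share among the 1817 lends no separate support. Most of these turnovers were of modest size: when each effect and their difference had to reach 1 on the log2 scale, 97 went from higher to lower and 22 from lower to higher. With library totals the lower-to-higher class shrank from 798 to 506 and the higher-to-lower class grew from 1019 to 1345, with 1851 turnovers in all.

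ENSDART00000080608.3 had the largest difference among the 878 eligible transcripts that were higher first and lower later. In 80% epiboly controls it stood at 0.0791, 0.163 and 0.108 CPM (counts scaled to a common library size, with TMM factors over the 12 libraries), from 7 to 14 raw counts, and in treated embryos at 0.453, 0.53 and 0.371 CPM. At 12 somites the controls held 10.4, 11.6 and 11 CPM and the atRA libraries 0.427, 0.755 and 0.532 CPM. Treated and control libraries did not overlap at either stage, which was a condition for being named. The atRA libraries of both stages lay in overlapping low ranges while the controls lay far apart. Its log2 fold change was 1.96 (SE 0.34) in the gastrula and -4.25 (SE 0.12) at 12 somites. The difference was -6.23 (SE 0.32, adjusted p = 4.04e-11, edgeR). At 24 hpf it was at 7.32 ± 1.51 CPM in controls and 4.7 ± 0.28 CPM with atRA (SD, n = 3), scaled within that stage, and was not called there (adjusted p = 0.0636, edgeR).

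ENSDART00000039235.7 had the largest difference among the 704 eligible transcripts that were lower first and higher later. Its 80% epiboly controls stood at 17.3, 15.5 and 10.7 CPM and the atRA libraries at 8.69, 4.91 and 4.09 CPM. At 12 somites it had dropped to 0.247, 0.284 and 0.277 CPM in controls, but stood at 1.06, 1.26 and 1.22 CPM with atRA. Thus treated libraries were below controls while the transcript was abundant and above them once it was scarce, without overlap at either stage. Again this lack of overlap was a condition for being named. The log2 fold changes were -1.29 (SE 0.23) and 2.14 (SE 0.17), and their difference was 3.43 (SE 0.41, adjusted p = 4.38e-06, edgeR). At 24 hpf it was lower again with atRA, by -2.07 on the log2 scale (SE 0.47; adjusted p = 0.0359, edgeR), from 1 to 5 counts per atRA library and 22 to 33 per control library.

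**Figure D2:**
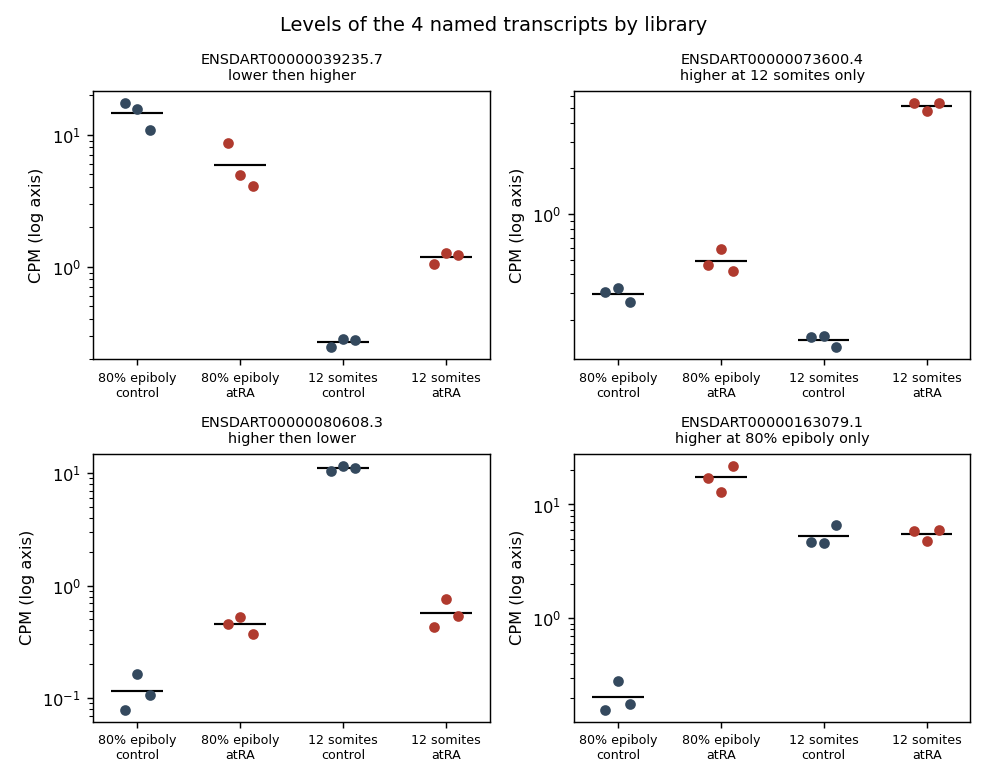
CPM on a log axis of the 4 named transcripts in each of the 12 libraries, controls in dark blue and atRA in red, with the mean of each group of 3 as a bar. ENSDART00000163079.1 was called higher only at 80% epiboly and ENSDART00000073600.4 only at 12 somites, while ENSDART00000039235.7 and ENSDART00000080608.3 change sides between stages.

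In 3758 of the differences the atRA effect was called in the gastrula only. Of these, 1863 transcripts were higher with atRA at 80% epiboly and not called at 12 somites (36 of them not tested there), with a median log2 fold change of 0.61 at the first stage and -0.041 at the second. The other 1895 (29 not tested later) were lower at 80% epiboly only, with medians of -0.36 and 0.048. Rises were the larger of the 2: 570 of the 1863 reached an absolute difference of 1, against 243 of the 1895. The 2 classes also differed in level, with medians in gastrula controls of 1.33 log2 CPM for the raised and 4.52 for the lowered. The part of level in the sizes was not tested. In 18 of the 1863, every 80% epiboly control held at most 3 counts, beside 1747 of all 42956 tested transcripts.

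ENSDART00000163079.1 showed the largest difference among the 1670 eligible transcripts raised in the gastrula and not called later. Controls at 80% epiboly held 0.158, 0.279 and 0.176 CPM, against 17.1, 13 and 21.9 CPM with atRA. At 12 somites the controls were at 4.67, 4.57 and 6.6 CPM and the treated libraries at 5.87, 4.73 and 5.98 CPM, with the ranges overlapping. The treated gastrulae thus stood above the level of either group at 12 somites. The log2 fold change was 6.41 (SE 0.24) in the gastrula and 0.072 (SE 0.12) later, and the difference was -6.34 (SE 0.32, adjusted p = 2.28e-11, edgeR). At 24 hpf the means were 32.5 ± 5.99 CPM in controls and 19.9 ± 6.01 CPM with atRA (SD, n = 3), which was not called (adjusted p = 0.129, edgeR). A further 4 IDs had counts within 5% (or 2 counts) of this transcript's in all 12 libraries, so these 5 IDs are not separate observations.

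Responses called only at 12 somites, the stage with the smaller spread between libraries, were the most frequent kind, with 4203 differences. In 1805 the transcript was higher with atRA at 12 somites, at a median log2 fold change of 0.45, and in 2398 it was lower, at a median of -0.62. These classes include 94 and 344 transcripts that had too few counts to be tested at 80% epiboly, beside 4913 of all 42956 transcripts. A difference of at least 1 in size was reached by 473 of the higher and 1004 of the lower class. Of the 473, 11 were more negative at 12 somites, and of the 1004, 2 were more positive. All of these were among the transcripts not tested at 80% epiboly. Among the 2398, every 80% epiboly control held at most 3 counts in 158, beside 1747 of all 42956 transcripts.

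ENSDART00000073600.4 had the largest difference among the 1594 eligible transcripts raised at 12 somites and not called in the gastrula. It stood at 0.305, 0.326 and 0.264 CPM in 80% epiboly controls and at 0.465, 0.592 and 0.424 CPM with atRA. At 12 somites the controls held 0.155, 0.158 and 0.133 CPM and the treated libraries 5.39, 4.77 and 5.39 CPM. The gastrula libraries did not overlap either, but their log2 fold change of 0.74 (SE 0.26) missed the threshold (adjusted p = 0.0506, edgeR), so its place in this class is by a narrow margin. At 12 somites the log2 fold change was 5.12 (SE 0.14), and the difference was 4.37 (SE 0.28, adjusted p = 9.72e-10, edgeR). At 24 hpf it was still higher with atRA, at 1.26 ± 0.36 CPM against 0.155 ± 0.024 CPM (SD, n = 3), or 3.01 on the log2 scale (adjusted p = 0.0027, edgeR).

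In 1067 differences the direction was the same at both stages and the size changed. For 568 transcripts the rise was smaller at 12 somites, with a median log2 fold change of 1.46 in the gastrula and 0.41 later, while for 157 it was larger, with medians of 0.51 and 1.21. Falls were smaller later in 171 transcripts (medians -0.79 and -0.28) and larger later in another 171 (medians -0.4 and -1.1). For these graded responses the scale mattered. In 273 of the 568 with a smaller fold rise, the rise in CPM was larger at 12 somites than in the gastrula, where the median control level was 1.11 log2 CPM against 3.36 at 12 somites. The sign on the CPM scale also differed in 79 of the 171 falls that were larger later by fold. Over all 11949 differences the linear and log signs disagreed in 512 (4.28%), and in none of the 1817 turnovers (0), where the stage effects differ in sign. The linear differences were not tested.

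The remaining 1104 differences were called at neither stage alone, 446 more positive and 658 more negative, with a median absolute difference of 0.63. Of these 1104, 303 had atRA and control libraries separated at both stages in opposite directions. Over all tested transcripts 3438 of 42956 (8%) did, and 3286 of those were called differences. A call of the difference in the same libraries favours such separation, so the larger share lends no separate support.

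**Figure D3:**
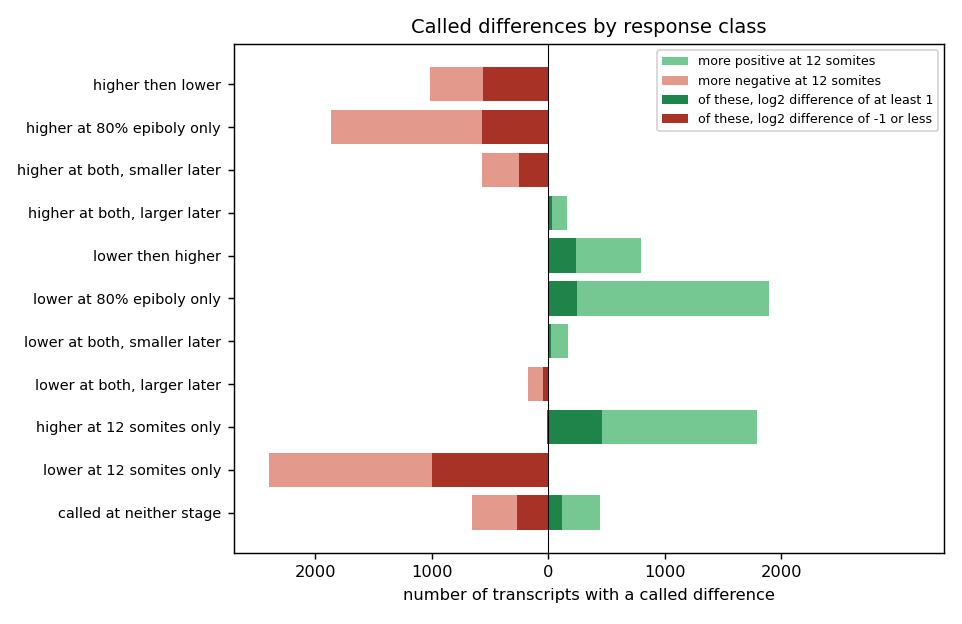
Number of called differences in each response class, more positive at 12 somites to the right (green) and more negative to the left (red), with the darker part reaching an absolute log2 difference of 1. The longest bar is the class lowered at 12 somites only (2396 of its 2398 to the left), and the class raised in the gastrula only (1863) lies on the negative side.

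Levels in the 4 groups showed where in development the classes sit. Transcripts that turned from higher to lower had median levels of 1.46 log2 CPM in gastrula controls and 2.16 in treated gastrulae, then 3.34 in 12 somites controls and 2.78 in treated embryos. Both treated medians lay between the control medians. Those raised in the gastrula only went from 1.33 to 1.99 log2 CPM at 80% epiboly, and stood at 2.67 and 2.61 at 12 somites. Transcripts that turned from lower to higher were abundant in gastrula controls, at a median of 4.39 log2 CPM, and stood at 4.04 in treated gastrulae, 3.7 in 12 somites controls and 4.01 in treated embryos. The class lowered in the gastrula only had medians of 4.52, 4.14, 3.65 and 3.65 in the same order. Class membership and these levels come from the same libraries, so they are set side by side with no test.

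**Figure D4:**
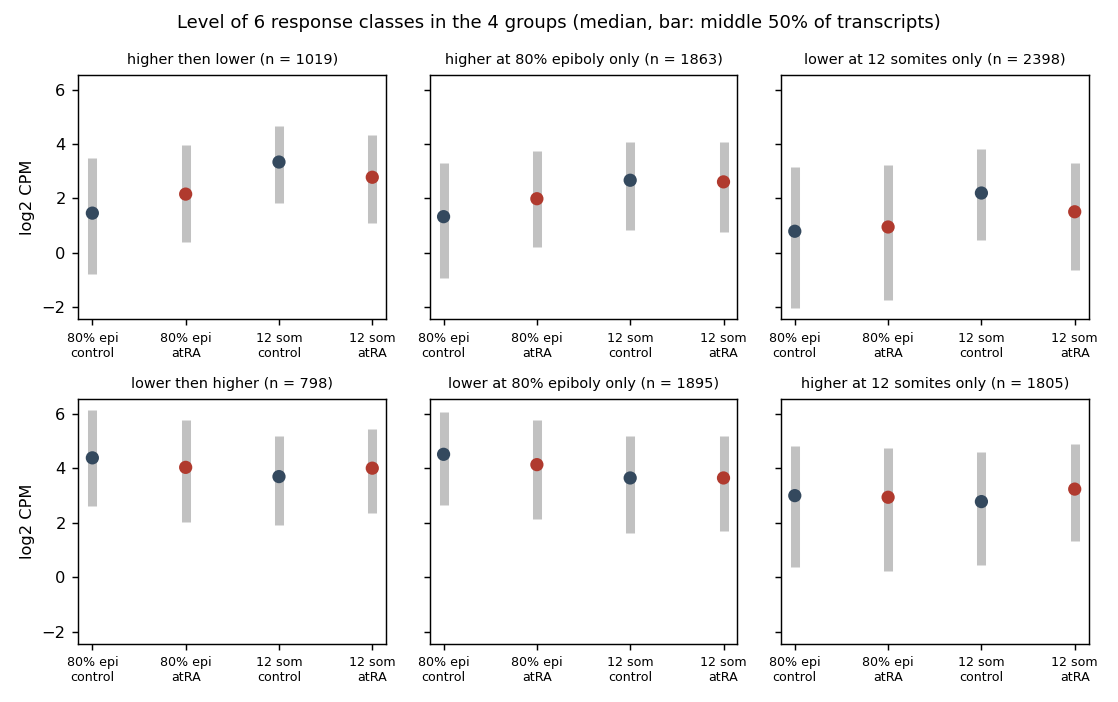
Median log2 CPM of 6 response classes in 80% epiboly control, 80% epiboly atRA, 12 somites control and 12 somites atRA, with grey bars for the middle 50% of transcripts. In the classes that turned over, both treated medians (red) lie between the control medians (blue), for example 2.16 and 2.78 between 1.46 and 3.34.

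The tested difference is equally the change between stages in treated embryos minus that in controls. Among the 11949 called differences, the change from 80% epiboly to 12 somites was smaller in atRA embryos for 8133 (68.1%), against 59.5% of all tested transcripts. Its median absolute size was 1.13 on the log2 scale in controls and 0.87 with atRA, and over all tested transcripts 0.94 and 0.86. The share was 70.5% among more negative and 65% among more positive differences. It was 84.5% where a rise shrank, and 17.5% in the 171 transcripts whose fall deepened. It was below the share of all tested transcripts in the class raised at 12 somites only (51%) and among more positive differences of at least 1 (53.7%). In 2305 differences (19.3%) the treated and the control groups differed between stages in opposite directions, against 10.5% of all tested transcripts. The share of smaller changes stayed between 67.6 and 69.1% under library totals, under DESeq2 size factors and without each library in turn. All these shares use the values that gave the calls, so they describe the differences and lend them no separate support. A more negative difference makes the treated change larger by arithmetic wherever controls fell. Controls rose in 89.4% of the class whose rise shrank and in 24.6% of the class whose fall deepened.

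Among the 1863 transcripts raised in the gastrula only, the treated gastrula mean was above the 12 somites control mean in 678 (36.4%). That count includes transcripts whose control level fell between the stages. The 12 somites control mean was above the 80% epiboly control mean in 1521 of the 1863, and in 336 of these (22.1%) the treated gastrula mean was above the 12 somites control mean too, as for ENSDART00000163079.1. Over all tested transcripts the same held for 1945 of 22904 (8.49%). The class was chosen by higher levels in these same treated gastrulae. Its larger share was therefore favoured by the choice and is no separate result.

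Abundance went with the calls. In the lowest 20% of transcripts by mean level 12.2% of differences were called, with a median absolute size of 2.15 on the log2 scale, and in the highest 20% it was 39.3%, with a median of 0.34. More positive differences made up 30% of the calls at the lowest levels and 61.8% at the highest. Small differences were thus called mostly in abundant transcripts.

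The 24 hpf libraries, which the interaction does not use, gave a separate readout of the classes under the same onset of exposure as at 12 somites. They comprised 3 controls and 3 atRA libraries with 38673189 to 72734557 counts, and all controls were deeper. Reads with no feature made up 4.13% of the total with atRA (3.83 to 4.29%) and 5.86% in controls (5.6 to 6.35%), multiply aligned reads 7.84% (7.66 to 8.03%) and 9.18% (9.06 to 9.38%), and ambiguous reads 17.94% (17.87 to 17.98%) and 17% (16.95 to 17.09%). None of these 3 shares overlapped between the groups, and their part in the 24 hpf calls was not tested. Of 39425 transcripts of the interaction tested there, 9.12% were called, 4.1% higher and 5.01% lower with atRA. Among differences more positive at 12 somites, 380 of 5050 (7.52%) were higher at 24 hpf and 206 (4.08%) lower. Among the more negative ones, 293 of 6425 (4.56%) were higher and 524 (8.16%) lower. The median log2 fold changes at 24 hpf were 0.046 and -0.056, against -0.0068 over all, and without 24 hpf control replicate 3 they were -0.00096 and -0.0024.

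By class, the largest shares called at 24 hpf were in 3 of the 4 classes called in the same direction at both earlier stages. Those higher at both earlier stages and more so at 12 somites were higher at 24 hpf in 55 of 151 (36.4%) and lower in 2. Those higher at both with a smaller later rise were higher in 124 of 566 (21.9%). Those lower at both and more so later were lower in 43 of 165 (26.1%). The exception was the class with falls that were smaller later, in which 13 of 168 (7.74%) were higher at 24 hpf and 3 (1.79%) lower. The side with more calls was not stable in that class. Without 24 hpf control replicate 1 there were 1 higher (0.599%) and 2 lower (1.2%), and with library totals 5 (2.98%) and 6 (3.57%). Without control replicate 2 there were 26 (15.6%) and 12 (7.19%), beside 9.97% and 10.4% over all transcripts. Of transcripts called at 12 somites only, the higher class was higher at 24 hpf in 11.2% and the lower class lower in 11.8%. Without 24 hpf atRA replicate 1 these shares were 1.49% and 2.55%. The 36.4%, 21.9% and 26.1% above became 11.3%, 11% and 4.17%, beside 0.635% higher and 0.684% lower over all transcripts. With all 24 hpf libraries, transcripts called in the gastrula only were near or below the background of 4.1% higher and 5.01% lower. They were at 3.27% higher and 3.05% lower for those raised and 3.67% and 4.55% for those lowered. Without 24 hpf control replicate 2 those raised were at 8.34% and 11.3% and those lowered at 12.2% and 8.11%, beside 9.97% and 10.4% over all transcripts. With library totals 6.96% of those lowered were lower, beside 6.42% over all transcripts. Without any other single 24 hpf library, both classes were below the shares of all transcripts on both sides. Among turnovers, 8.86% of the higher-then-lower class were lower at 24 hpf and 2.42% higher. In the lower-then-higher class 45 of 780 (5.77%) were higher and 33 (4.23%) lower. Without 24 hpf control replicate 1 there were 10 of each (1.28%), beside 0.744% higher and 1.17% lower over all transcripts. With library totals 47 (6.03%) were higher and 56 (7.18%) lower, beside 3.03% and 6.42% over all transcripts.

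Single 24 hpf libraries moved these counts by more than 1.5 times. Without atRA replicate 1 the more positive differences held 59 higher and 22 lower calls and the more negative ones 87 and 100. Without control replicate 2 they held 857 and 383, and 555 and 1021. Without control replicate 1 they held 71 and 45, and 97 and 160. Without atRA replicate 2 the counts were 131 and 56, and 129 and 179, and without atRA replicate 3 they were 131 and 65, and 133 and 214. Higher calls outnumbered lower ones among the more positive differences, and lower outnumbered higher among the more negative, in each of these. By share, however, higher calls were rarer among the more positive than the more negative differences in some. The shares were 1.16% against 1.34% without atRA replicate 1, and 1.41% against 1.51% without control replicate 1. Over all transcripts, 0.635% were higher and 0.684% lower without atRA replicate 1, and 9.97% and 10.4% without control replicate 2. With library totals the more positive differences held 301 higher (5.96%) and 321 lower (6.36%) calls, beside 3.03% higher and 6.42% lower over all transcripts, whose median log2 fold change moved to -0.098.

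**Figure D5:**
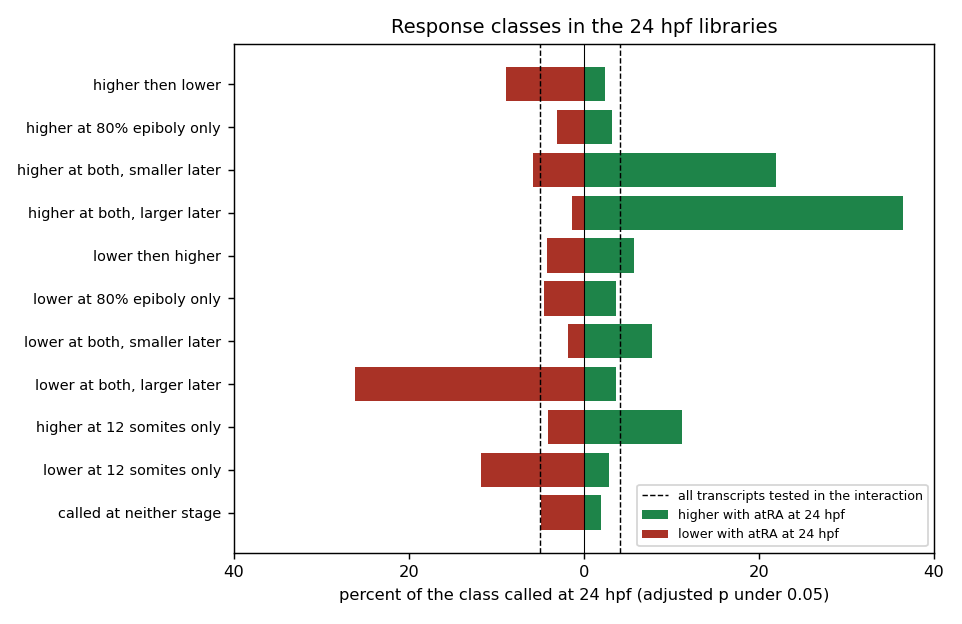
Percent of each response class called higher (green, right) or lower (red, left) with atRA in the 24 hpf libraries, with dashed lines at the 4.1% and 5.01% of all transcripts tested in the interaction. Classes called at 12 somites extend past the dashed line on their 12 somites side, up to 36.4%, except the falls that were smaller later (1.79%), and the classes called in the gastrula only do not.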

How the data were processed

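Per the submitters' processing notes, STAR, HTSeq and the build GRCz10 (danRer10) were used, and roles, versions, annotation release and strand setting are not given in the sources used here. The authors deposited raw counts per transcript, 1 file per library, with 5 summary lines. No summary line entered a test or a library size. In the 12 libraries reads with no feature made up 3.1 to 4.28%, ambiguous reads 18.3 to 18.9% and multiply aligned reads 7.12 to 8.66% of the total. Here and above, the total is the transcript counts plus these summary lines, and it leaves out the other lines. The line for low alignment quality equalled that for multiply aligned reads in every library. The total may therefore not be the number of reads sequenced. How reads shared by isoforms, gene copies or antisense genes were assigned is not stated, and 1631 of the 42956 tested IDs had the same 12 counts as another ID. Transcripts are therefore not independent of each other.

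From these counts, edgeR 4.0.16 in R 4.3.3 was used with filterByExpr over the 4 groups, TMM factors, glmQLFit and glmQLFTest over the 12 libraries, with Benjamini-Hochberg adjustment over all transcripts tested. Standard errors are the absolute log2 value divided by the square root of F. Each stage alone, 24 hpf included, was fitted the same way over its 6 libraries. Log2 CPM used a prior count of 1. Alternatives used DESeq2 1.42.0 and limma 3.58.1. Counts limit precision, and counting error is only part of the spread.

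Named transcripts had a called difference, a mean of at least 10 counts in each of the 4 groups and no overlap between treated and control libraries at a stage where they were called. The largest difference in each of 4 classes was taken. Gene lists (9, with 177 genes) could not be used, since 0 of their genes carry a transcript ID here. Members, classes and lists were chosen with earlier results of these data known.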

Additional observations from a re-analysis of the deposited data

Results flagged for a closer look

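The atRA effect differed between the stages for 11949 transcripts, which stands out because the difference itself was tested. The named transcripts were chosen for a called and large difference, so their values describe it and are no further result. They were 3.43 for ENSDART00000039235.7, 4.37 for ENSDART00000073600.4, -6.23 for ENSDART00000080608.3 and -6.34 for ENSDART00000163079.1 on the log2 scale.

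Outside the transcript counts, reads with no feature made up 3.41% of the total in the 80% epiboly atRA libraries (3.33 to 3.47%), above the 3.1 to 3.28% of the controls. At 12 somites ambiguous reads made up 18.27 to 18.35% with atRA, narrowly below the 18.36 to 18.4% of the controls. At 24 hpf ambiguous reads made up 17.9% with atRA, above the 16.95 to 17.09% of the controls. The part of these shares in the calls was not tested.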

How the results depend on the processing

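Stricter thresholds lowered the counts by construction. An absolute log2 difference of at least 1 left 3815 differences, 1114 more positive and 2701 more negative, and 797 turnovers were among them. When the effect at each stage also had to reach 1, 119 turnovers were left. An adjusted p under 0.01 left 7342, 3032 and 4310, with 836 turnovers that met it in both stage fits too. A fit of all 18 libraries gave 5822 (2486 and 3336). Its spread is shared with 24 hpf, whose common coefficient of variation was 0.2 against 0.077 at 80% epiboly and 0.049 at 12 somites. The count moved by less than 1.5 times with size factors from DESeq2 (12332), scaling by totals (12140), without a filter (11705), with 10 or more counts required in each library (10626), the DESeq2 Wald test (12172), limma voom with weights per stage (11589), 1 ID per set of identical counts (11719) and, added after seeing the data, thinning (11364) and a mean of at least 10 counts in each group (10608). Without each library in turn there were 9888 to 12541 differences, 4257 to 6287 more positive, 5631 to 6377 more negative and 1400 to 1868 turnovers. At 24 hpf the more positive differences held 59 to 857 higher and 22 to 383 lower calls, the more negative ones 87 to 555 and 100 to 1021, and with library totals 321 lower calls among the more positive. Without each 24 hpf library in turn, 0.635 to 9.97% of all transcripts were higher and 0.684 to 10.4% lower. The libraries share only replicate numbers: between treated and control libraries with 1 number, deviations from the group means had correlations of -0.026, 0.025 and 0.027 in the gastrula and 0.041, -0.0059 and 0.035 at 12 somites, and not every library correlated best with its own number. With the replicate number as a block within stage, 11929 differences were called. All 99 values of the 4 named transcripts under the alternatives that tested them kept their direction and call, with adjusted p up to 3.85e-05 over edgeR, DESeq2 and limma. The stricter thresholds and the mean of at least 10 counts reused the main fit, so the values could not change there. That mean was also a condition for being named. The 4 were chosen for large called differences, so keeping the call lends no separate support. Depth limits the transcripts with few counts: of the 8592 with the lowest levels 12.2% were called.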

Other observations

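Scarce transcripts carried a set of differences that the stage fits could not describe. Of the 11949, 639 had too few counts to be tested at 80% epiboly alone, 514 of them more negative at 12 somites, and 144 had too few at 12 somites. Over all 42956 transcripts of the interaction, 4913 and 1866 had too few, so such transcripts were not frequent among the calls. In 319 differences every 80% epiboly control held at most 3 counts, beside 1747 of all 42956 transcripts, and 313 of the 319 were more negative. In 43 the treated gastrulae were at that floor as well, beside 1023 of all 42956 transcripts. The fitted size in these 43 rests on very few gastrula counts and is a poor measure of fold. At 12 somites, every atRA library was at the floor in 48 differences, 47 of them more negative, and every control in 38, 37 of them more positive. Over all 42956 transcripts the atRA libraries were at the floor in 332 and the controls in 280.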
